A study of Mus musculus with 27 samples.

Results

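The 9 factors described here, Gata3, Runx1, Runx2, Runx3, Cbfb, Myb, Mybl1, Ets1 and Ets2, are the mouse genes of the transcription factors that act with TAL1 in T-ALL (a leukaemia of immature T cells), together with their closest paralogs. They were taken by symbol from the deposited count tables, and all 9 were found in each of the 3 tables, among 22729 symbols that the tables share. The study measured RNA by sequencing in 27 libraries, 3 in each of 9 groups. The 4 mouse groups are thymus from C57BL/6 mice after bone marrow transplant. They are labelled TAL1, empty vector (EV), AKT(E17K) with TAL1 (AKT_TAL1) and AKT(E17K) alone (AKT), where AKT(E17K) is an activated form of the kinase AKT1. The other 5 groups are ProT cells, a mouse cell line that carries TAL1 under control of CreER and LoxP, so that 4OH tamoxifen should switch it on, sampled at 0, 6, 12, 18 and 24 h. The 0 h cells therefore carry the same construct as the later ones. The labels do not state which promoter drives TAL1 or AKT(E17K), which cells of the thymus carry them, or whether 1 or several cultures gave the ProT libraries of a time. For ProT cells the spread behind the p-values is that between libraries and may be technical.

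In human T cell leukaemia lines, TAL1 binds DNA in a complex with E proteins, LMO and LDB1 proteins, and shares many of its sites with GATA3, RUNX1, MYB and ETS factors, which also occupy each other's enhancers. GATA3 is a zinc-finger factor needed from the first steps of T cell development and for the CD4 lineage. RUNX1, RUNX2 and RUNX3 share a DNA-binding domain and each pairs with CBFB, which does not bind DNA by itself and raises the affinity of its partner. RUNX1 is needed in early thymocytes, RUNX3 in CD8 T cells and cytotoxic cells, and RUNX2 is best known from bone and is also expressed in early thymocytes. MYB maintains progenitors and double-positive thymocytes, and its paralog MYBL1 (A-MYB) is best known from germ cells. ETS1 is an abundant factor of thymocytes, and ETS2 is its close paralog.

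The RUNX genes are shown with a stretch of sequence that they share, because 3 of the 4 factors called below with all libraries belong to this family. In GRCm38 coordinates, Runx1 lies on chromosome 16 (92601466 to 92826149), Runx2 on chromosome 17 (44495987 to 44814797) and Runx3 on chromosome 4 (135120652 to 135177990). RefSeq start-site windows of 300 bases (250 before the start and 50 after it, GRCm38.p6) were found for 7 of the 9 factors. The windows at the upstream starts of the 3 RUNX genes share a run of 18 bases, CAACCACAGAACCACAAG, which holds the RUNX core motif in tandem. Each line below gives that run with 6 bases on either side, read on the strand of its gene. Capitals mark matches to the motif TGTGGT, searched on both strands and here found as ACCACA.
Runx1, chr16:92826025-92826054, minus strand: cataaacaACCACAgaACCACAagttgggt
Runx2, chr17:44814583-44814612, minus strand: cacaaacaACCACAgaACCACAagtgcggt
Runx3, chr4:135120503-135120532, plus strand: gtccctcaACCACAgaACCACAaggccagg
The run begins at base 27 after the start for Runx1, at base 22 after it for Runx2 and at base -136 for Runx3. Of 32817 windows of this length, 4 hold the run, and the one besides these RUNX windows belongs to Gm16225, which overlaps the Runx3 window on the opposite strand. The single motif TGTGGT occurs in 16.8% of all windows. A match describes the letters of the window, and the deposited counts are per gene and do not separate the upstream starts from the others.

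Gata3 lies on chromosome 2 (9857078 to 9890034), Cbfb on chromosome 8 (105170674 to 105217989), Myb on chromosome 10 (21124935 to 21160984) and Mybl1 on chromosome 1 (9667415 to 9700209). Ets1 lies on chromosome 9 (32636221 to 32757820) and Ets2 on chromosome 16 (95702075 to 95721051). In the GENCODE M21 annotation, exons of Runx2 share 519 bases with exons of other genes, those of Myb 559, those of Gata3 232 and those of Runx1 106. The strand setting of the counting was not given in the sources used here, so reads from these bases cannot be assigned with certainty.

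Counts in genes per library came to 7155918 to 11302098 in TAL1 mice, 3893990 to 5915285 in EV mice, 2230143 to 2792084 in AKT_TAL1 mice, 2073752 to 3661056 in AKT mice and 2660641 to 6599146 in ProT cells. Tal1 did not follow the labels of the mice: it had 0 counts in every TAL1, AKT_TAL1 and EV mouse, and 7 counts in 1 AKT mouse, m121. A count of 0 in a single library allows up to 0.265 to 0.419 CPM in TAL1 mice and 1.07 to 1.35 CPM in AKT_TAL1 mice (3 counts per library, counting error only). A TAL1 sequence outside the counted mouse gene would not be seen here, so every direction given for the mice rests on the labels. In ProT cells Tal1 averaged 3007 ± 103 CPM at 0 h and 2019 ± 52.9 CPM at 24 h (SD, n = 3 each), so its counts did not rise after 4OH tamoxifen. Summed T lineage markers (Cd3 genes, Lck, Thy1, Ptcra, Bcl11b and Tcf7) came to 8730 to 9201 CPM in TAL1 mice, 6818 to 8073 CPM in EV mice, 4323 to 5709 CPM in AKT_TAL1 mice and 4760 to 4938 CPM in AKT mice. In ProT cells they came to 915 to 1090 CPM, and Cd4 and Cd8a were at 0 in all libraries of 0 h. ProT library 1 of 6 h stood apart from libraries 2 and 3 of its time. The chi-square of counts per degree of freedom was 22.8 and 18.7 against them, and 3.78 between them. Library 1 of 12 h also stood apart, with 19.9 and 18.4 against 7.31. Library 1 of 6 h was nearest to library 1 of 12 h (Pearson r 0.979 across genes), though several other ProT libraries were also nearest to a library of another time. Calls of the factors that change without library 1 of 6 h are given beside the ProT results.

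Ets1 and Ets2 were higher in every mouse than in any ProT library, and Runx2 and Runx3 were lower in every mouse. Levels of the factors that compare genes or tables are in RPKM, CPM per kilobase of exon with TMM scaling over all 27 libraries, where CPM are counts scaled to a common library total. Values in CPM, with the marker sums above, were scaled within each table. The 3 tables were counted separately, so their levels are set side by side with no test. In TAL1 mice the factors highest in RPKM were Ets2 (116.1 ± 6.50 RPKM), Ets1 (108 ± 8.22 RPKM) and Myb (94.6 ± 3.40 RPKM). The lowest was Runx2 (0.447 ± 0.148 RPKM, SD, n = 3). In CPM, with no length, the order of these top factors was Ets1 (792 CPM), Myb (730 CPM) and Ets2 (580 CPM). EV mice held the same 3 at the top, with Ets1 at 120.8 ± 15.02 RPKM, Ets2 at 96.3 ± 2.79 RPKM and Myb at 81.1 ± 6.40 RPKM. In AKT_TAL1 and AKT mice Ets2 led, with 144 ± 61.9 RPKM and 189 ± 63.0 RPKM. In ProT cells at 0 h the leading factor was Runx3 (99.9 ± 7.71 RPKM), followed by Myb (60.9 ± 0.673 RPKM) and Cbfb (52.9 ± 6.46 RPKM), while Ets1 had 5.30 ± 0.130 RPKM and Ets2 1.29 ± 0.510 RPKM.

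**Figure D1:**
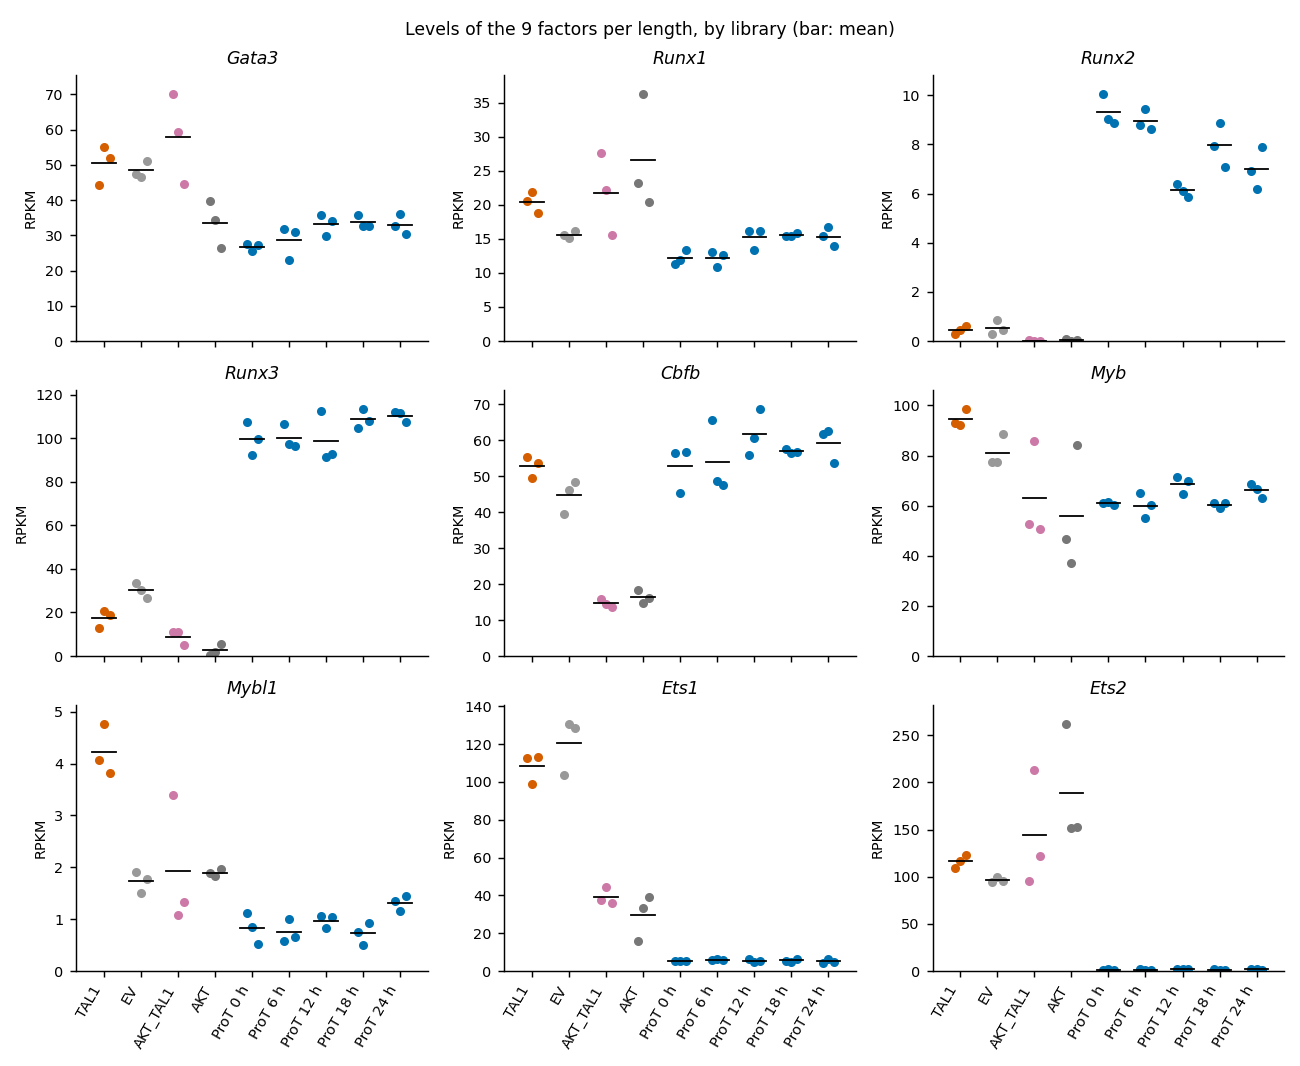
RPKM of each factor (vertical axis, linear from 0) in the 9 groups (horizontal axis), with 1 point per library and a bar at the mean of 3. Ets1 and Ets2 were near the bottom of their panels in all ProT libraries, and Runx2 and Runx3 were higher in every ProT library than in any mouse.

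Ordered by their levels, the groups fell into blocks whose ranges did not overlap for several factors. Runx3 ran from 91.2 to 113 RPKM over all ProT libraries, and then, with no overlap between neighbours, came EV mice (26.8 to 33.8 RPKM), TAL1 mice (12.9 to 20.7 RPKM) and AKT_TAL1 mice (4.83 to 11.0 RPKM), while AKT mice (0.656 to 5.64 RPKM) overlapped AKT_TAL1 mice. Runx2 ran from 5.87 to 10.04 RPKM in ProT cells and stayed under 1 RPKM in every mouse. Ets1 was highest in EV and TAL1 mice, which overlapped, then in AKT_TAL1 mice (35.8 to 44.3 RPKM) and AKT mice (15.7 to 39.3 RPKM), which also overlapped. Cbfb, the shared partner of the RUNX proteins, had 13.6 to 15.9 RPKM in AKT_TAL1 mice and 14.7 to 18.4 RPKM in AKT mice, below every library of the other groups. Myb had the smallest ratio of its highest to its lowest group mean, which were 94.6 RPKM in TAL1 mice and 56.0 RPKM in AKT mice. Gata3 was highest in AKT_TAL1 mice (57.9 ± 12.8 RPKM), which overlapped TAL1 and EV mice, and lowest in ProT cells at 0 h (26.7 ± 1.14 RPKM). Runx1 had its highest mean in AKT mice (26.7 ± 8.44 RPKM), followed by AKT_TAL1 and TAL1 mice, and these 3 groups overlapped. Mybl1 was the lowest factor but for Runx2 in all 4 mouse groups, and the lowest of all in ProT cells.

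The first comparison asks how thymus labelled TAL1 differs from thymus with the empty vector. Mybl1 rose and Runx3 fell in TAL1 mice, and the other 7 factors did not pass the threshold of 0.05 on the adjusted p (edgeR quasi-likelihood test, Benjamini-Hochberg over 12357 genes). These 2 of 9 factors stand against 5.04% of all genes tested that were called in this comparison, 2.16% higher and 2.88% lower. Mybl1 had 19.2, 22.3 and 17.6 CPM in TAL1 mice, against 8.98, 7.20 and 8.42 CPM in EV mice. Every TAL1 mouse lay above every EV mouse, and the log2 fold change was 1.25 ± 0.25 (SE, adjusted p = 0.0103, edgeR). Runx3 had 55.9, 89.6 and 79.8 CPM in TAL1 mice, against 147, 133 and 118 CPM in EV mice. The groups were again apart, with a log2 fold change of -0.82 ± 0.16 (adjusted p = 0.0105, edgeR). Without EV mouse M312 the adjusted p of Mybl1 was 0.0504 (edgeR) at a log2 fold change that stayed within 1.15 to 1.33 over all mice left out in turn. Markers of mature T cells (Il7r, S1pr1, Klf2 and Ccr7) came to 70.1 to 121.8 CPM in sum in TAL1 mice against 412 to 467 CPM in EV mice, and 4 of the 4 fell beside Runx3. Summed double-positive markers (Cd4, Cd8a, Cd8b1, Rag1, Rag2 and Dntt) came to 8029 to 9228 CPM in TAL1 mice against 5873 to 7269 CPM in EV mice, and 2 of the 6 rose. Summed myeloid markers came to 365 CPM in TAL1 mouse M318, against 9.4 CPM in M317, 11.7 CPM in M319 and 14.1 to 28.8 CPM in EV mice. The part of any of these cells in the changes of Runx3 and Mybl1 was not tested. In bulk thymus, fewer cells of a type and less RNA per cell cannot be told apart.

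The factors that did not pass the test still lay mostly on the higher side. Runx1 had 215, 228 and 194 CPM in TAL1 mice, against 163, 160 and 170 CPM in EV mice. The ranges did not overlap, and the log2 fold change was 0.37 ± 0.10 (adjusted p = 0.0551, edgeR). With DESeq2 the adjusted p of Runx1 was 0.0244, and with edgeR without the filter on low counts 0.0328. Ets2 had 550, 583 and 606 CPM in TAL1 mice, against 473, 508 and 483 CPM in EV mice, with a log2 fold change of 0.25 ± 0.08 (adjusted p = 0.112, edgeR). Myb had 724, 713 and 753 CPM in TAL1 mice, against 601, 610 and 693 CPM in EV mice, a log2 fold change of 0.20 ± 0.08 (adjusted p = 0.226, edgeR). Cbfb averaged 159 ± 9.04 CPM in TAL1 mice and 136 ± 15.04 CPM in EV mice, also without overlap. In all, 5 factors were higher and 1 was lower in every TAL1 mouse than in every EV mouse, where 11.7% and 11.5% of all tested genes were, 23.1% in all. Gata3 averaged 173 ± 18.8 CPM in TAL1 mice and 169 ± 8.26 CPM in EV mice, and Ets1 792 ± 58.6 CPM and 898 ± 118 CPM in the same order, with overlapping ranges for both genes. Runx2 was scarce, with 16, 25 and 50 counts in TAL1 mice and 14, 26 and 17 counts in EV mice. The median log2 fold change of the 9 factors was 0.20, against 0.00 over all tested genes.

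**Figure D2:**
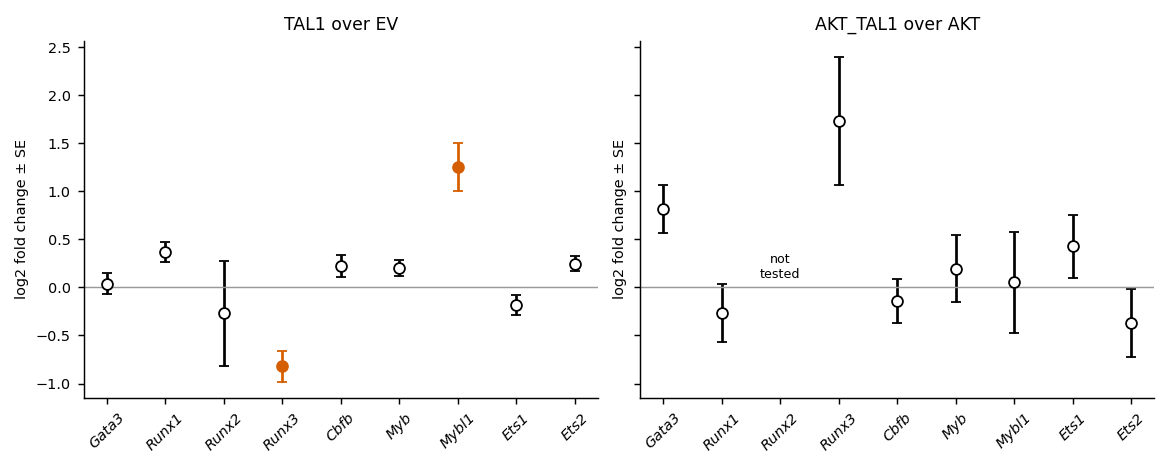
log2 fold change (vertical axis, with its SE) of each factor for TAL1 over EV mice on the left and AKT_TAL1 over AKT mice on the right. Filled orange points passed the adjusted threshold, which were Runx3 and Mybl1 on the left, and none did on the right, where Runx2 was not tested.

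Among genes known to work with or under these factors, 6 of the 7 lists held calls. Of all genes tested in this comparison 5.04% were called, 2.16% higher and 2.88% lower, and the lists were set beside that share with no test. Of 11 listed RUNX targets 9 were tested, 4 fell and 1 rose in TAL1 mice. Eomes, a T-box factor of cytotoxic cells, averaged 0.592 ± 0.620 CPM in TAL1 mice and 9.68 ± 11.5 CPM in EV mice, with a log2 fold change of -4.01 ± 0.96 (adjusted p = 0.0298, edgeR). Its SD in EV mice exceeded the mean, so the EV mice differed widely. Its mean in TAL1 mice was not far above the level of 3 counts (0.265 to 0.419 CPM). Zbtb7b, which directs the CD4 lineage and is also on the GATA3 list, averaged 3.04 ± 2.12 CPM and 11.8 ± 4.04 CPM in the same order (log2 fold change -1.91 ± 0.50, adjusted p = 0.0468, edgeR). The median log2 fold change of the tested RUNX targets was -1.30. The list does not separate targets that RUNX factors activate from those they repress, so this median gives no direction of RUNX activity. Il7r, another that fell, is also a mature T cell marker, while Cd8b1, the 1 that rose, is also a double-positive marker. Of the 10 genes that the circuit is known to activate in human leukaemia cells, 8 were tested and 3 fell. They include Ccr7, a chemokine receptor of mature T cells (log2 fold change -2.46 ± 0.37, adjusted p = 0.00263, edgeR) and Cd53, a tetraspanin of leukocytes (-1.84 ± 0.24, adjusted p = 0.00112, edgeR). Of the 2 tested GATA3 targets, Zbtb7b was the 1 that fell. All 7 MYB targets were tested and 1 fell: Bcl2, which protects cells from apoptosis, had 115 to 147 CPM in TAL1 mice and 295 to 346 CPM in EV mice (log2 fold change -1.31 ± 0.11, adjusted p = 0.000219, edgeR). Among 15 tested cofactors 1 fell, Hipk2, a nuclear kinase that acts on RUNX1 and MYB (-1.37 ± 0.36, adjusted p = 0.0463, edgeR). Among the other GATA, MYB and ETS genes 1 of 12 tested rose, Mybl2, the cell cycle member of the MYB family, with 28.9 ± 3.65 CPM in TAL1 mice and 15.5 ± 1.99 CPM in EV mice (0.91 ± 0.21, adjusted p = 0.0247, edgeR). None of the 8 tested partners of the TAL1 complex was called.

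The comparison of AKT_TAL1 with AKT mice asks the same question on the background of AKT(E17K). No factor passed the threshold, and neither did any other of the 9782 genes tested with edgeR (0% called), of which 709 had an unadjusted p under 0.05, while DESeq2 called 76 genes and none of the factors. Gata3 had 251, 213 and 161 CPM in AKT_TAL1 mice, against 139, 123 and 93.4 CPM in AKT mice. It was the only factor higher in every AKT_TAL1 mouse, with a log2 fold change of 0.82 ± 0.25 (adjusted p = 0.581, edgeR), where 6.18% of all tested genes had this separation and 5.72% the opposite one (11.9% in all). Runx3 had 49.6, 49.1 and 21.9 CPM in AKT_TAL1 mice, against 2.88, 7.37 and 25.2 CPM in AKT mice. Mouse m124 of the AKT group overlapped mouse m119 of the AKT_TAL1 group, and the log2 fold change was 1.73 ± 0.67 (adjusted p = 0.673, edgeR). Without m124 it was 3.03 (adjusted p = 0.111, edgeR).

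Ets2 and Myb spread widely within both groups. Ets2 had 498, 1118 and 639 CPM in AKT_TAL1 mice, against 1329, 794 and 790 CPM in AKT mice. Myb had 426, 694 and 411 CPM in AKT_TAL1 mice, against 366, 300 and 671 CPM in AKT mice. For both genes the ranges overlapped, and 1 mouse of each group stood well above the other 2. Runx1 averaged 237 ± 64.9 CPM in AKT_TAL1 mice and 287 ± 94.1 CPM in AKT mice, Ets1 300.7 ± 34.6 CPM and 224 ± 94.9 CPM, and Cbfb 46.3 ± 3.57 CPM and 51.0 ± 5.06 CPM, each in the same order. Mybl1 had 16.6, 5.30 and 6.52 CPM in AKT_TAL1 mice, against 8.97, 8.95 and 9.51 CPM in AKT mice. Runx2 had 1, 0 and 0 counts in AKT_TAL1 mice and 2, 0 and 1 counts in AKT mice, so both groups were at or under the floor of 3 counts and it was not tested. Markers of other cells varied in the same libraries: stromal markers came to 12.6 to 28.2 CPM in AKT_TAL1 mice and 11.1 to 384 CPM in AKT mice, with the highest value in m121, and myeloid markers to 73.2 to 328 CPM and 74.8 to 777 CPM in the same order. The part of these cells in the spread of the factors was not tested. AKT mouse m121 had the lowest Ets1 (116.6 CPM), the lowest Runx3 and the highest Ets2 of its group. No gene of the partner and target lists was called in this comparison.

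The fold changes of Runx3 had opposite signs on the 2 backgrounds, and the difference between TAL1 effects was tested by itself over the 12 mice. The effect of the TAL1 label with AKT(E17K) minus the effect without it was 2.54 ± 0.69 on the log2 scale for Runx3 (adjusted p = 0.187, edgeR), so the difference did not pass the threshold. No factor was called here, against 0.164% of 10947 genes. For Runx3 the adjusted p ranged widely with the processing: it was 0.0244 with DESeq2, 0.0496 with edgeR without the filter on low counts, and 0.00859 with edgeR without AKT mouse m124, where the difference was 3.93. Over the other 13 alternatives it was 0.095 to 0.394. Summed mature T cell markers came to 30.4 to 32.1 CPM in AKT_TAL1 mice and 6.32 to 29.3 CPM in AKT mice, and their part in the Runx3 values was not tested. Gata3 had a difference of 0.80 ± 0.27 (adjusted p = 0.291, edgeR) and Mybl1 one of -1.18 ± 0.55 (adjusted p = 0.465, edgeR). The mice with and without AKT(E17K) come from separate tables, so an effect of AKT(E17K) and one of the table cannot be told apart, while each TAL1 effect is taken within its own table.

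Within the RUNX and ETS families, the paralog that made up most of the transcripts differed between systems, and within the MYB pair it did not. Runx1 made up 61.0, 50.9 and 49.5% of the summed RPKM of the 3 RUNX genes in TAL1 mice, against 31.4, 32.7 and 37.2% in EV mice. All TAL1 mice lay above all EV mice, and Runx3 made up nearly all of the rest. In AKT_TAL1 mice the share of Runx1 was 71.4, 67.2 and 76.4%, against 96.9, 95.7 and 78.3% in AKT mice, where all AKT_TAL1 mice lay below all AKT mice. In ProT cells Runx3 made up 80.8 to 83.4% in every library, and Runx2 reached its largest share, 7.68 ± 0.378% at 0 h. Ets1 made up 50.8, 45.9 and 48.0% of the summed RPKM of Ets1 and Ets2 in TAL1 mice, against 52.4, 56.7 and 57.4% in EV mice. In AKT_TAL1 mice it made up 22.7 ± 5.52% and in AKT mice 14.7 ± 7.95% (SD, n = 3 each), with overlapping ranges. In ProT cells Ets1 made up 80.6 ± 6.56% at 0 h and 70.7 ± 5.27% at 24 h, of a far smaller sum. Myb made up 94.0% of the summed RPKM of Myb and Mybl1 in its lowest library, an AKT_TAL1 mouse. These shares depend on the length assigned to a gene. With the longest transcript in place of all exon bases, the mean share of Runx1 was 64.8% in TAL1 mice and 44.7% in EV mice, against 53.8% and 33.8% with all exon bases.

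**Figure D3:**
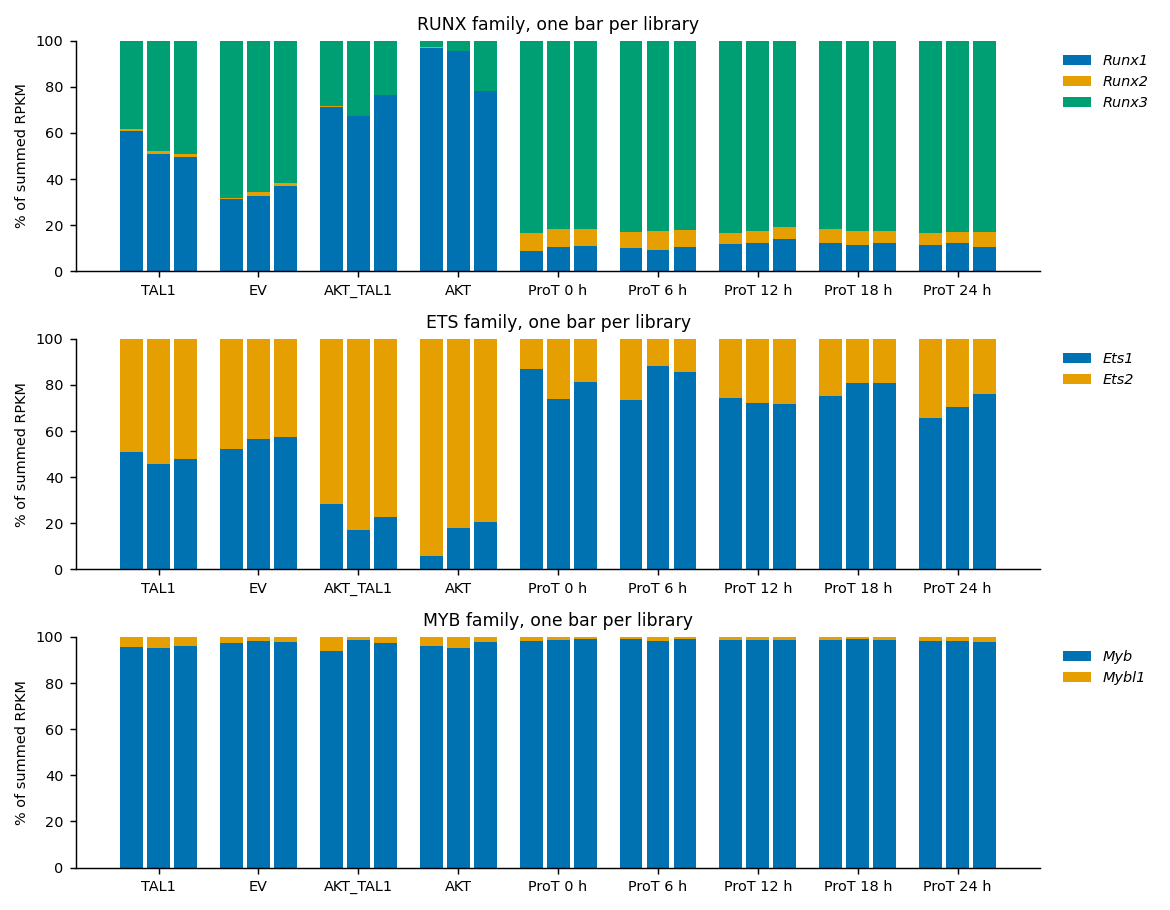
Share of the summed RPKM of a family held by each paralog (vertical axis, percent), with 1 bar per library and 3 bars per group. Runx1 held 49.5 to 61.0% of RUNX transcripts in TAL1 mice and 31.4 to 37.2% in EV mice, and Runx3 held over 80% in all ProT libraries.

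In ProT cells, the time course asks which genes changed after 4OH tamoxifen. Runx2 fell at 12 and 24 h and Runx1 rose at 24 h, while Runx3, the factor highest in RPKM here, did not pass the threshold at any time. Runx2 had 55.2, 49.3 and 49.1 CPM at 0 h, 49.6, 52.0 and 47.4 CPM at 6 h, 35.7, 33.5 and 32.4 CPM at 12 h, 44.2, 49.3 and 39.0 CPM at 18 h, and 38.5, 34.5 and 43.7 CPM at 24 h. The 3 libraries of 12 h lay below all 6 of 0 and 6 h, and those of 18 h overlapped 0 h again. The log2 fold change of Runx2 against 0 h was -0.59 ± 0.13 at 12 h (adjusted p = 0.00246, edgeR over 13610 genes) and -0.39 ± 0.12 at 24 h (adjusted p = 0.0256, edgeR). At 18 h it was -0.21 ± 0.12 (adjusted p = 0.305, edgeR). Between 6 and 12 h Runx2 was the only factor called with all libraries, with a log2 fold change of -0.55 ± 0.12 (adjusted p = 0.00361, edgeR), where 10.9% of all genes were called, 5.54% higher and 5.31% lower. At 12 h it was 1 of 9 factors called, against 12.0% of all genes, 6.33% higher and 5.69% lower.

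Runx1 had 84.9, 87.9 and 101 CPM at 0 h, 100.2, 81.2 and 95.0 CPM at 6 h, 122.2, 99.9 and 121.5 CPM at 12 h, 117.4, 116.6 and 119.1 CPM at 18 h, and 116.8, 126.7 and 105 CPM at 24 h. All libraries of 18 and 24 h lay above those of 0 h. For Runx1, 12 h over 0 h gave a log2 fold change of 0.32 ± 0.12 with an adjusted p of 0.0723 (edgeR). The value for 18 h was 0.36 ± 0.12 with 0.0534, and that for 24 h, the only time called, was 0.34 ± 0.12 with 0.0386. At 24 h Runx1 and Runx2 were the 2 of 9 factors called, against 18.7% of all genes (9.43% higher, 9.30% lower). At 18 h none was, against 8.82% (4.89% higher, 3.92% lower). Over all times together the same 2 factors were called, Runx1 with an adjusted p of 0.0266 and Runx2 with 0.00317 (edgeR), against 18.0% of all genes. Without 0 h library 1 or 2, 6 h library 2, or 24 h library 1 or 2, that call of Runx1 was lost. Its adjusted p was then 0.0522 to 0.0784 (edgeR). The call of Runx2 over all times was lost with scaling by library size only (adjusted p = 0.0776, edgeR). Both calls at 24 h were lost without 0 h library 1 or 2 or 24 h library 1 or 2, with adjusted p of 0.0938 to 0.169 for Runx1 and 0.0594 to 0.141 for Runx2. With scaling by library size only, the adjusted p at 24 h was 0.291 for Runx2 and 0.0477 for Runx3, and without the filter on low counts that of Runx2 was 0.0796 (edgeR). At 6 h no factor and no gene was called with edgeR (0%), 734 genes had an unadjusted p under 0.05, and DESeq2 called 1 gene.

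**Figure D4:**
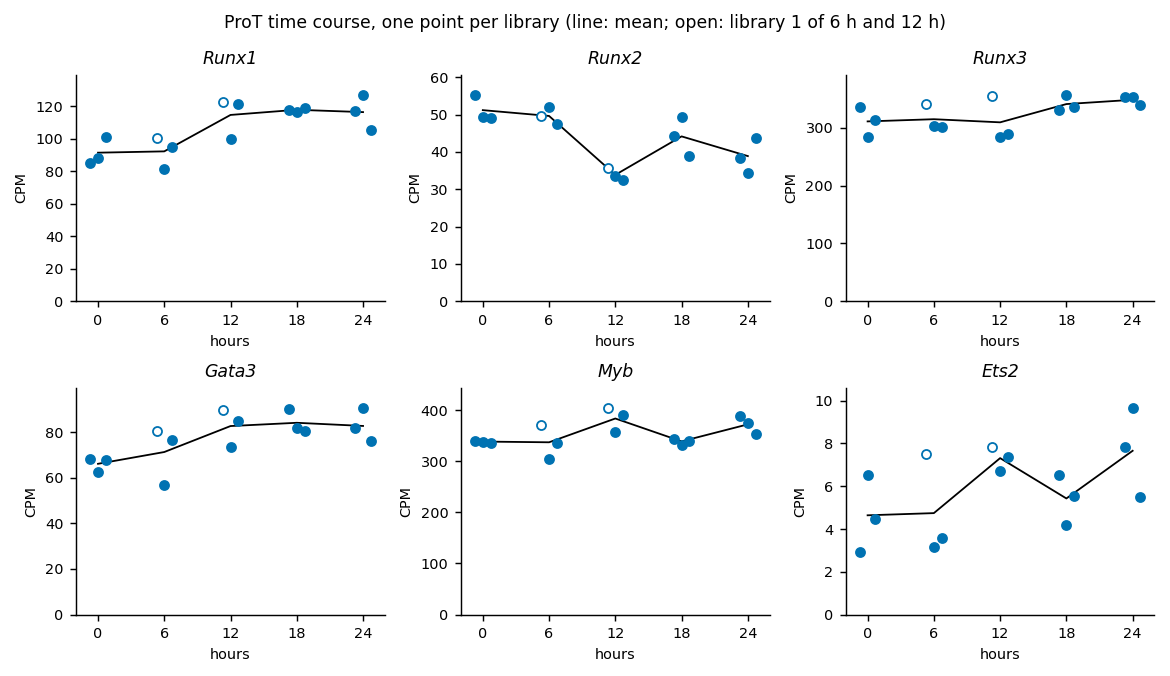
CPM (vertical axis, linear from 0) of 6 factors at 0, 6, 12, 18 and 24 h (horizontal axis) in ProT cells, with 1 point per library, a line through the means, and open points for library 1 of 6 and of 12 h. Runx2 was lowest at 12 h, with 32.4 to 35.7 CPM, and Runx1 was above its 0 h range in all libraries of 18 and 24 h.

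With all libraries, no other factor of ProT cells passed the test at any time. Gata3 averaged 66.1 ± 3.25 CPM at 0 h, 71.3 ± 12.6 CPM at 6 h, 82.7 ± 8.21 CPM at 12 h, 84.1 ± 5.11 CPM at 18 h and 82.7 ± 7.24 CPM at 24 h. Its libraries of 12, 18 and 24 h all lay above those of 0 h, but its adjusted p against 0 h was 0.0891, 0.0807 and 0.0667 (edgeR). Runx3 averaged 311.1 ± 25.3 CPM at 0 h and 348 ± 8.55 CPM at 24 h in these bulk libraries, and Myb ranged from 305 to 403 CPM over all 15 libraries. Cbfb ranged from 97.5 to 149 CPM and Ets1 from 21.8 to 34.4 CPM. Ets2 and Mybl1 were scarce, with 7 to 61 and 7 to 30 counts per library. At 24 h, 6 of the 9 factors had no overlap with 0 h, where 40.4% of all tested genes had none (20.4% higher, 20.1% lower). Runx2 was lower in all libraries, and Gata3, Runx1, Runx3, Myb and Mybl1 were higher. At 12 h this held for 4 factors (against 29.6%), at 18 h for 2 (against 32.3%) and at 6 h for Ets1 alone (against 9.39%, of which 4.75% higher and 4.64% lower). Between 6 and 12 h it held for Runx2 alone (against 23.8%).

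More factors were called without library 1 of 6 h, the 6 h library nearest to 12 h, and so were more genes of all tested. Genes called went from 1477 to 2434 between 6 and 12 h and from 1635 to 2140 at 12 h. They went from 1200 to 1752 at 18 h, from 2549 to 3164 at 24 h and from 2455 to 3533 over all times. Between 6 and 12 h 4 factors were called without that library. Beside Runx2 these were Runx1 (log2 fold change 0.38, adjusted p = 0.0291), Cbfb (0.36, adjusted p = 0.0326) and Ets2 (1.12, adjusted p = 0.0224, edgeR). At 12 h against 0 h Runx1 was called as well (adjusted p = 0.045, edgeR), so that 2 factors passed. At 18 h Runx1 (adjusted p = 0.0292, edgeR) and Gata3 (adjusted p = 0.0442, edgeR) passed, and at 24 h Gata3 (adjusted p = 0.0377, edgeR) passed beside Runx1 and Runx2. Over all times Gata3 (adjusted p = 0.0312, edgeR) and Ets2 (adjusted p = 0.0306, edgeR) joined Runx1 and Runx2, so that 4 factors passed. Runx3, Myb, Mybl1 and Ets1 were called in none of these comparisons without that library.

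Summed NK cell and innate lymphoid markers came to 619 to 765 CPM at 0 h, 501 to 599 CPM at 6 h, 889 to 1232 CPM at 12 h, 881 to 933 CPM at 18 h and 829 to 894 CPM at 24 h. Single genes of this list moved in both directions. Of 5 tested, 1 rose and 1 fell at 12 h, and 1 rose and 2 fell at 24 h. Of all genes, 12.0% and 18.7% were called at these times. Summed megakaryocyte and mast cell markers came to 270 to 296 CPM at 0 h and 476 to 507 CPM at 24 h. Other sums were lower at 24 h than at 0 h. Myeloid markers came to 62.1 to 71.25 CPM at 0 h and 40.3 to 43.8 CPM at 24 h, and dendritic markers to 19.2 to 23.2 CPM and 12.3 to 15.5 CPM. Mature T cell markers came to 92.7 to 97.9 CPM at 0 h, 101.6 to 109.8 CPM at 18 h and 79.3 to 84.1 CPM at 24 h. All these sums differed between 0 and 24 h without overlap. The part of any of these cells in the changes of Runx2 and Runx1 was not tested.

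Partners of the TAL1 complex moved in both directions over the same hours. All 12 listed partners were tested, and 4 fell and 1 rose at 12 h, where 5.69% of all genes were called lower and 6.33% higher. Lmo2, the LIM-only protein that bridges TAL1 to LDB1, averaged 11.1 ± 3.33 CPM at 0 h, 4.28 ± 0.730 CPM at 12 h and 6.68 ± 1.39 CPM at 24 h, with a log2 fold change of -1.37 ± 0.28 at 12 h (adjusted p = 0.00173, edgeR). Ldb1, the scaffold of that complex, averaged 114 ± 20.7 CPM at 0 h, 69.9 ± 10.2 CPM at 12 h and 66.9 ± 4.77 CPM at 24 h (log2 fold change at 24 h -0.75 ± 0.13, adjusted p = 0.000204, edgeR). At 24 h 3 partners fell and 2 rose, where 9.30% of all genes were called lower and 9.43% higher. Ssbp2, which stabilises LDB1, averaged 70.0 ± 6.61 CPM at 0 h and 33.3 ± 3.91 CPM at 24 h (log2 fold change -1.05 ± 0.15, adjusted p = 1.8e-05, edgeR). Tal1 is among the partners that fell.

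Of 14 tested cofactors 2 rose and none fell at 12 h, and likewise at 24 h, a share near that of all genes (12.0% and 18.7% called). Between 6 and 12 h 1 cofactor fell and none rose, where 10.9% of all genes were called. Zfpm1, the FOG1 protein that binds GATA factors, averaged 19.4 ± 2.61 CPM at 0 h, 36.0 ± 4.55 CPM at 12 h and 36.6 ± 5.16 CPM at 24 h (log2 fold change at 24 h 0.93 ± 0.15, adjusted p = 0.00014, edgeR). Erg, an ETS factor of stem cells and early T cell progenitors, averaged 9.83 ± 2.79 CPM at 0 h, 27.3 ± 1.87 CPM at 12 h and 21.9 ± 2.99 CPM at 24 h (log2 fold change at 12 h 1.41 ± 0.19, adjusted p = 1.44e-05, edgeR). It was the only one of 14 tested other GATA, MYB and ETS genes called at 12 h, and at 24 h Mybl2 was higher as well (0.76 ± 0.20, adjusted p = 0.0102, edgeR) and 1 of the 14 was lower. Of 7 tested genes known to be activated by the circuit, 4 rose and none fell at 24 h (9.43% of all genes called higher), with a median log2 fold change of 0.32 against -0.01 over all genes. They include Stat5a, a signal transducer of cytokine receptors, with 77.1 ± 11.1 CPM at 0 h and 105 ± 7.31 CPM at 24 h (0.43 ± 0.13, adjusted p = 0.0196, edgeR), and Ccr7 (0.96 ± 0.29, adjusted p = 0.0217, edgeR).

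Targets of single factors moved in both directions. Of 5 tested RUNX targets 2 fell and 1 rose at 12 h, and 1 fell and none rose at 24 h, where 12.0% and 18.7% of all genes were called. The target that fell at 24 h was Itgae, the integrin chain CD103, which averaged 49.7 ± 5.04 CPM at 0 h, 24.3 ± 2.13 CPM at 12 h and 21.1 ± 3.92 CPM at 24 h (log2 fold change at 24 h -1.21 ± 0.16, adjusted p = 1.13e-05, edgeR). The 1 tested GATA3 target, Maf, a transcription factor of helper T cells, fell at 24 h (-0.91 ± 0.18, adjusted p = 0.000828, edgeR). Of 7 tested MYB targets 2 rose and 1 fell at 24 h, and 1 rose and 1 fell at 12 h. Ccnb1, a cyclin of mitosis, averaged 25.1 ± 1.56 CPM at 0 h and 43.2 ± 2.75 CPM at 24 h (0.77 ± 0.15, adjusted p = 0.00102, edgeR). Kit, the stem cell factor receptor, averaged 308 ± 29.8 CPM at 0 h and 244 ± 7.84 CPM at 24 h (-0.33 ± 0.11, adjusted p = 0.029, edgeR).

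For the factors called over all times, the genes with the most similar course were sought by the Pearson correlation of log2 CPM over the 15 ProT libraries. For Runx1 they were Zc3h14 (r 0.936), Mob1a (r 0.936) and Sf1 (r 0.927). For Runx2 they were Gclc (r 0.908), RP24-544J6.5 (r 0.906) and Gm21970 (r 0.899). The libraries share the times and the scaling, and the correlations are descriptions without a test.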

How the data were processed

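RNA was sequenced from 12 mouse thymi and 15 ProT cell libraries. The authors deposited whole-number counts per gene in 3 tables. Per the submitters' processing notes, FastQC, HISAT2, SAMtools and HTSeq were used, with builds mm10 and GRCm38. Versions, annotation release and strand setting are not given in the sources used here. The tables of EV and TAL1 mice and of ProT cells hold 46078 genes with identifiers, and that of AKT(E17K) mice 22906 symbols.

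Groups were taken from the labels. The counts were tested with edgeR 4.0.16 in R 4.3.3 (TMM normalisation, filterByExpr, quasi-likelihood F test, Benjamini-Hochberg adjustment over all genes tested, threshold 0.05). Each mouse comparison was fitted in its own table, the 15 ProT libraries together, and the difference between the TAL1 effects over 12 mice on shared symbols. SE is the absolute log2 fold change over the square root of F. CPM are counts scaled by the total of the genes passing the filter times the TMM factor. Lengths are unions of exons in GENCODE M21 (GRCm38). The biological coefficient of variation was 22.0% in EV and TAL1 mice, 35.0% in AKT(E17K) mice and 11.6% in ProT cells. The scripts were tested on simulated data.

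The factors, the 7 lists of 75 partner and target genes and the marker lists were chosen with earlier results of these data known; some marker genes are not reported here and were left out of the sums. From each list at most 2 called genes per comparison are named, those with the largest absolute log2 fold change. Alternatives were other scalings, no filter, DESeq2 1.42.0, other sets of libraries and each library left out. ProT libraries carry numbers 1 to 3 at each time; the correlation of deviations between libraries of the same number had a median of -0.008, and the numbers were not used to pair them. No pair of replicates agreed within sampling noise.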

Additional observations from a re-analysis of the deposited data

How the results depend on the processing

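Depth limits Runx2, Mybl1 and Ets2, which had under 70 counts in every library of at least 1 system, and AKT(E17K) mice had the fewest counts and the widest spread. Scaling by library size only moved the median log2 fold change of all ProT genes to 0.18 at 12 h, 0.13 at 18 h and 0.17 at 24 h.

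Leaving out 1 library at a time gave 337 to 661 genes and 1 to 2 factors called for TAL1 against EV, and 0 to 8 genes for AKT_TAL1 against AKT. In ProT cells it gave 819 to 2140 genes and 1 to 2 factors at 12 h, 419 to 1752 and 0 to 2 at 18 h, 1447 to 3164 and 0 to 3 at 24 h, 657 to 2434 and 1 to 4 between 6 and 12 h, and 1810 to 3533 and 1 to 4 over all times. For the difference between the TAL1 effects it gave 2 to 173 genes and 0 to 1 factor. Without the filter on low counts 1107 genes were called for TAL1 against EV, 30 for AKT_TAL1 against AKT and 58 for the difference (1 factor). At 24 h this setting called 2641 genes and 1 factor. DESeq2 called 76 genes for AKT_TAL1 against AKT, 186 for the difference (1 factor) and 1 gene at 6 h. At 18 h it called 1213 genes and 1 factor. With library size only, 2380 genes and 4 factors were called at 12 h (Gata3, Runx1 and Myb beside Runx2). At 18 h 1368 genes and 2 factors were. With TMM scaling the genes called were 1635 at 12 h and 1200 at 18 h. A fit of only the 6 libraries compared called 2244 genes and 2 factors at 18 h and 573 genes between 6 and 12 h. An alternative chosen after seeing the data, without library 1 of 6 h and of 12 h, called 2061 genes and 2 factors at 18 h, 2719 and 3 between 6 and 12 h, and 4471 and 5 over all times. The cause was not tested. The replicate number as a block in the ProT fit gave 2662 genes at 24 h against 2549 and changed no call of a factor; the numbers are no known pairing.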
